A study of Homo sapiens with 14 samples.

Results

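The genes of the cytosolic ribosomal proteins were examined in chromatin immunoprecipitation sequencing (ChIP-seq) data from T47D, a luminal breast cancer cell line with oestrogen and progesterone receptors. The members were chosen by symbol among the protein-coding genes of the RefSeq annotation of GRCh38.p14 on chromosomes 1 to 22 and X, namely RPL or RPS followed by a number, with the stalk proteins RPLP0, RPLP1 and RPLP2 and with RPSA. This gave 81 of 19821 genes, 49 of the large and 32 of the small subunit. Cells were treated for 1 h with vehicle (ethanol) or with progesterone (P4). The antibody Ab-8 precipitated the progesterone receptor (PR), and another one POLR3A, the catalytic subunit of RNA polymerase III. Each antibody and treatment had 3 replicate libraries, and each treatment 1 pooled input, 14 libraries in all from 1 cell line. The replicates of a group share 1 deposited list of enriched regions, so that none of the 4 lists has a replicate check and no test between lists was made. The lists held 38933 and 111515 regions for PR under vehicle and P4, and 29161 and 47904 for POLR3A. Library depth is unknown. A longer list fills more genes, and whether depth set the lengths was not tested. The fold enrichment and −log10 q given for a region are the authors' deposited values. The files hold no RNA values, so neither the transcription of these genes nor the markers of the cell line could be examined.

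Ribosomal proteins join the ribosomal RNAs to form the large and the small subunit of the ribosome, and their genes are among the most actively transcribed of dividing cells. RNA polymerase II transcribes them, while RNA polymerase III makes the 5S ribosomal RNA and the tRNAs that the same ribosomes need. Most human ribosomal protein mRNAs start with a C followed by a run of pyrimidines, the TOP sequence (terminal oligopyrimidine), through which mTOR signalling sets their translation. PR is a nuclear receptor that binds DNA as a dimer when it holds its hormone.

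POLR3A regions lay at 4 in 5 ribosomal protein genes under either treatment. A gene was counted when its span with 1 kb on either side held at least 1 bp of a region. Under vehicle, 67 of the 81 genes or 82.7% had a POLR3A region (95% exact binomial interval 72.7 to 90.2), against 44.2% of all protein-coding genes. Under P4 there were 66, or 81.5% (71.3 to 89.2), against 49.1%. PR regions were at 45 members or 55.6% under vehicle (44.1 to 66.6), against 44.7% of all genes, and at 70 or 86.4% under P4 (77 to 93), against 70.8%. The intervals cover counting error over genes only.

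Under a stricter rule the members' share stayed above that of all genes for POLR3A, but not for PR under vehicle. With regions of −log10 q of at least 5, POLR3A was at 45 members under vehicle and 36 under P4, 55.6% and 44.4%, against 15.7% and 15.9% of all genes. PR was at 19 and 49, 23.5% (interval 14.8 to 34.2) and 60.5% (49 to 71.2). The shares of all genes, 28.9% and 55.4%, lay within these intervals. With a −log10 q of at least 10, POLR3A was at 17 and 12 members, 21% and 14.8%, against 3.26% and 2.86% of all genes. PR was then at 6 and 31, 7.41% (2.77 to 15.4) and 38.3% (27.7 to 49.7), against 18.8% and 39.6%. The members' share was thus the lower one under vehicle and near that of all genes under P4.

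Ribosomal protein genes are short, with a median window of 7015 bp against 26482 bp for all protein-coding genes, and a short window has less room for a region. Among genes with windows of 5388 to 9105 bp, the range between the members' quartiles, 33 of 41 members had POLR3A under vehicle and 35 under P4, against 34.9% and 38.7% of the 2056 genes of these lengths. For PR the counts were 26 and 36 of 41, against 29.3% and 55.4%. The 10299 genes whose windows lay anywhere in the range of the 81 members had PR in 33.3% and 60.1% and POLR3A in 38.3% and 42.1%. Between the quartiles, PR of at least 5 was at 9 and 28 of 41 members, 22% and 68.3%, against 14.2% and 36% of genes, and of at least 10 at 2 and 16, 4.88% and 39%, against 6.37% and 20.2%. Under vehicle the members' intervals, 10.6 to 37.6 and 0.596 to 16.5, held the share of genes of these lengths at both limits. POLR3A of at least 5 was at 24 and 17, against 11.7% and 11.7%, and of at least 10 at 8 and 5, against 2.09% and 1.9%. With length taken out of the comparison in another way, by 1 kb on either side of the start for the 64 members that RefSeq's promoter table matched, 48 had POLR3A under vehicle and 47 under P4, against 29.2% and 31.3% of 15812 genes. PR was there at 22 and 50, against 21% and 46%. The ratio of the members' share to that of all genes was 1.87 and 1.66 for POLR3A and 1.24 and 1.22 for PR over whole windows, and 2.57, 2.35, 1.64 and 1.7 around the starts.

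**Figure D1:**
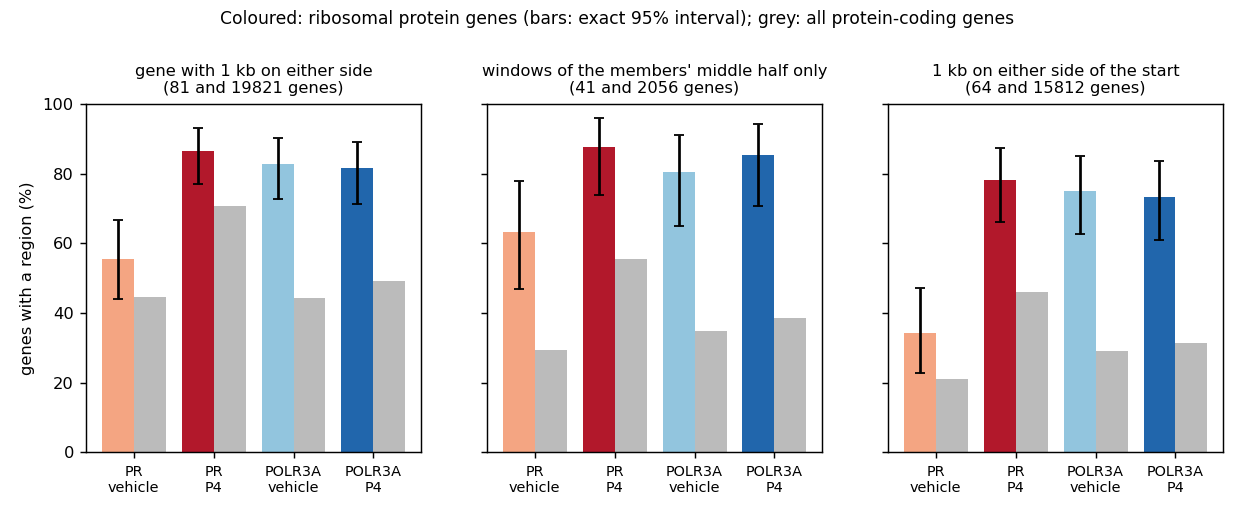
Share of genes with a region in each of the 4 lists, in percent, over 3 kinds of window. Coloured bars are ribosomal protein genes, with the exact 95% interval over genes, and grey bars protein-coding genes. Whole windows cover 81 members and all 19821 genes. Windows between the members' quartiles cover 41 members and 2056 genes, and windows around the start 64 members and 15812 genes. The POLR3A shares of the members lie between 73.4% and 85.4% in every panel, while the PR share under vehicle runs from 34.4% to 63.4%.

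The members differed in which lists held them. A region of all 4 lists was at 40 of them or 49.4%, against 26.8% of all genes, among them RPL3, RPL10A, RPL12, RPL13, RPL32, RPL35A, RPL41, RPLP0, RPLP1, RPS2, RPS3, RPS14, RPS26 and RPS29. In a further 20 genes or 24.7%, the PR list under vehicle was the missing one, a combination seen at 7.81% of all genes. These 20 were RPL9, RPL13A, RPL15, RPL17, RPL21, RPL26, RPL27, RPL28, RPL36, RPL39L, RPS3A, RPS7, RPS12, RPS15, RPS15A, RPS16, RPS19, RPS20, RPS25 and RPS27L. No list had a region at 5 genes, RPL10L, RPL22, RPL36A, RPL39 and RPS6, or 6.17% against 24.3% of all genes. PR under P4 was the sole entry of RPL10, RPL31 and RPS4X, and POLR3A under vehicle that of RPL29, RPLP2 and RPSA. RPL18 and RPS23 lacked POLR3A under vehicle alone. Each alone in their combination were RPL3L, RPL5, RPL34, RPS13, RPS27A and RPS28.

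Large and small subunit genes had similar shares. POLR3A was at 42 of 49 large and 25 of 32 small subunit genes under vehicle, 85.7% and 78.1%, against 44.2% of all genes, and at 39 and 27 under P4, 79.6% and 84.4%, against 49.1%. PR was at 29 and 16 under vehicle, 59.2% and 50% against 44.7%, and at 41 and 29 under P4, 83.7% and 90.6% against 70.8%. The 50% of the small subunit for PR under vehicle lay near the background. Their intervals overlapped in every list.

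**Figure D2:**
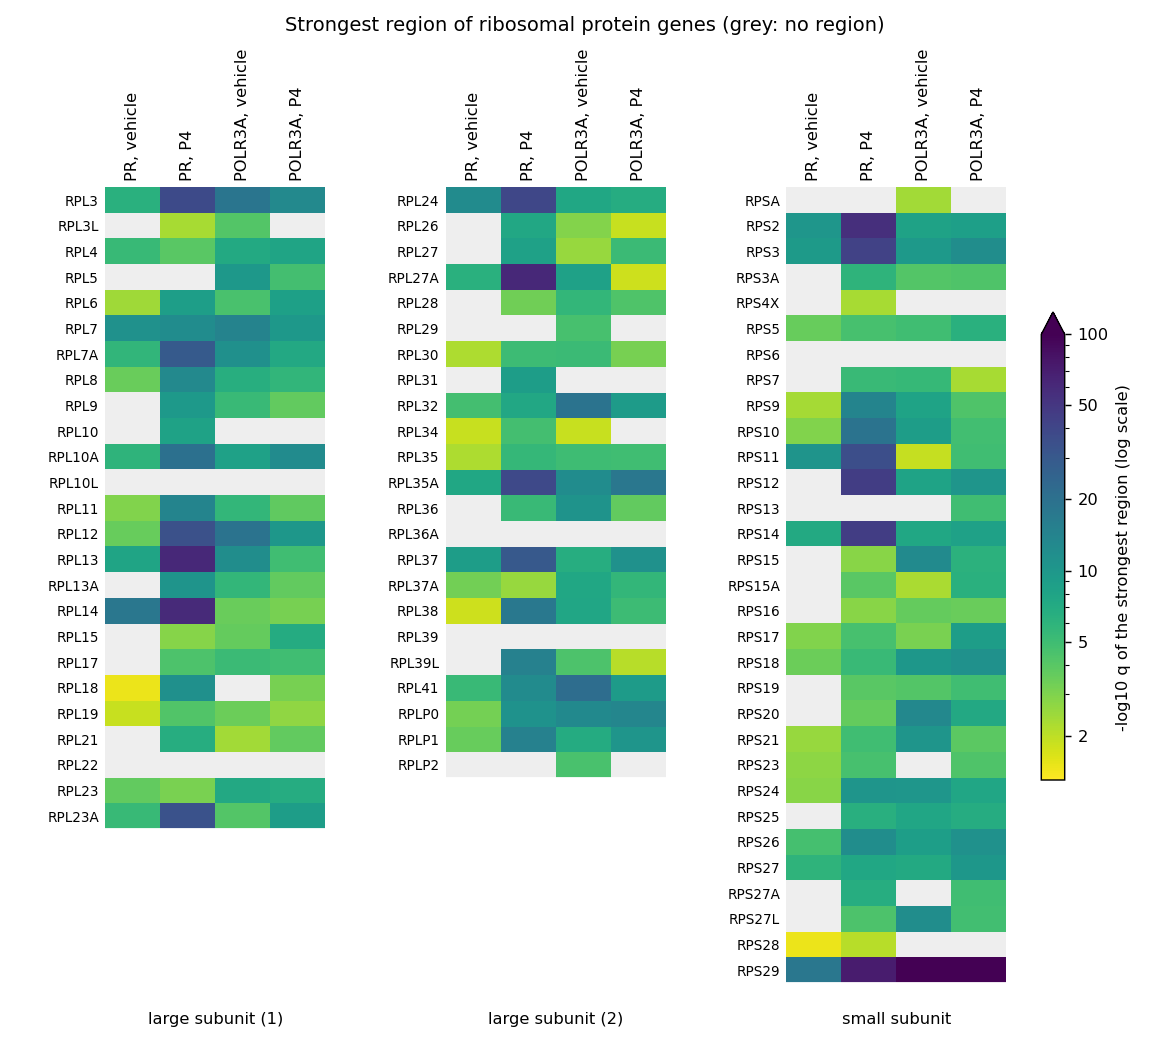
The −log10 q of the strongest region of 79 of the ribosomal protein genes (rows) in the 4 lists (columns), on a logarithmic colour scale that ends at 100, with grey for no region. The POLR3A columns are filled for most genes at similar, moderate values, and RPS29 alone exceeds 100 there, with 469 and 499.

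The POLR3A regions sat at the start of the genes, mostly just inside the transcribed part. The strongest POLR3A region of a window had its summit at a median of 60 bp downstream of the start under vehicle (51 members with a start and a region, quartiles 18 and 163 bp) and 117 bp under P4 (51 members, quartiles 25 and 374.5 bp). For all protein-coding genes with a region these medians were 466 and 1169 bp. Within 500 bp of the start lay the strongest summit of 40 of the 51 members under vehicle, 78.4%, and of 36 under P4, 70.6%. Genes with windows between the members' quartiles had 51.8% and 38.3%.

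Taking the strongest summit within 1 kb of the start, 22 of 48 members or 45.8% had it in the first 100 bp of the gene under vehicle and 10 more in the next 100 bp, against 14.5% and 12.1% of the 4462 protein-coding genes that had a summit there. Under P4 these counts were 16 and 8 of 47, or 34% and 17%, against 10.4% and 9.32% of 4691 genes. Of 43 members with such a summit in both POLR3A lists, 26 had both summits within 100 bp of each other, with a median gap of 63 bp. Both summits lay within 100 bp of the start at 13 members. Neither count was made over all genes, so neither is shown to be particular to the members.

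**Figure D3:**
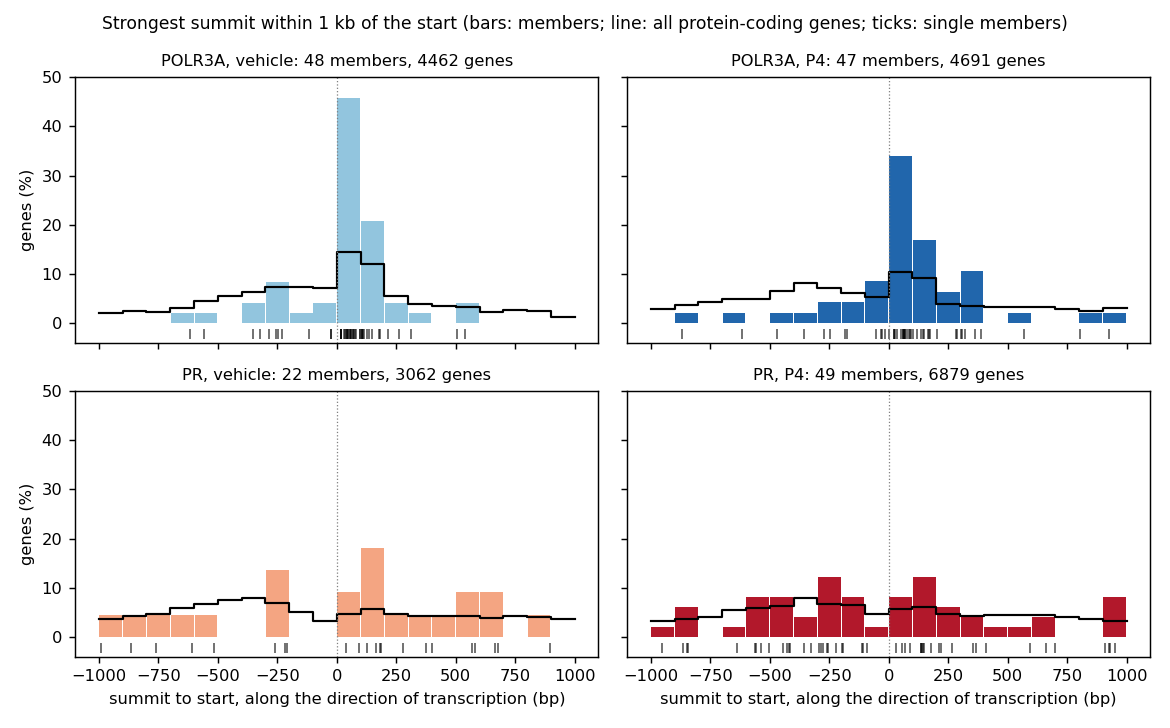
Distance of the strongest summit within 1 kb of the start, in bp along the direction of transcription (negative: upstream), in bins of 100 bp, as percent of the members with such a summit (bars, with a tick for each member) and of all protein-coding genes with one (line). POLR3A peaks in the first 200 bp of the members, with 45.8% and 34% in the first 100 bp, while PR summits spread over both sides of the start.

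The 6 of these 13 members with the highest −log10 q under vehicle were taken to show the letters around the start. Apart from RPS15 under vehicle, at 19 bp, their POLR3A summits lay downstream of the stretches printed. The stretches below are the sense strand from 80 bases before the start to 20 bases from it, from RefSeq's table for GRCh38.p14, with the pyrimidines that run on from the start in capitals. They are RPL3 (chr22:39319604-39319703, minus strand), RPL41 (chr12:56116553-56116652, plus), RPLP0 (chr12:120201092-120201191, minus), RPS15 (chr19:1438316-1438415, plus), RPL35A (chr3:197950110-197950209, plus) and RPS3 (chr11:75399438-75399537, plus).
RPL3: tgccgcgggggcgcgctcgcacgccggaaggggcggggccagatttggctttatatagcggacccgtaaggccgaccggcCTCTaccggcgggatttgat
RPL41: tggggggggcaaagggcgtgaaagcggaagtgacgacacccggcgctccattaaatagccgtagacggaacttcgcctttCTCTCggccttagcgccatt
RPLP0: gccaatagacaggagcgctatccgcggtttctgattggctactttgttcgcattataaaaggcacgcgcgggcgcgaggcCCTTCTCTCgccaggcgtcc
RPS15: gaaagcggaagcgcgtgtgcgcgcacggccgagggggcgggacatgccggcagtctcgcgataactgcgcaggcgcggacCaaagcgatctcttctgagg
RPL35A: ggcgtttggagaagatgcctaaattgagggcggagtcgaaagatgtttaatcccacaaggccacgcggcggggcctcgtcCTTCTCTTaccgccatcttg
RPS3: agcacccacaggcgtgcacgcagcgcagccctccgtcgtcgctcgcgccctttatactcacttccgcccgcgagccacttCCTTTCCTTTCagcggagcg

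RPL3, a protein near the peptidyl transferase centre, had POLR3A summits 47 bp downstream of its start under vehicle (−log10 q 18.6, 8.51-fold over background) and 64 bp downstream under P4 (13, 6.5-fold). RPLP0, the base of the stalk that receives elongation factors, had them at 37 bp (12.7, 5.02-fold) and 52 bp (13.7, 6.28-fold). RPS15 had summits at 19 and 22 bp, with −log10 q of 12.6 and 6.09. The printed genes were picked for summits within 100 bp of the start in both POLR3A lists, so the closeness of their summits follows from the choice. RPL35A, a large subunit protein mutated in some cases of Diamond-Blackfan anaemia, had summits at 76 and 95 bp (10.5 and 17.9). RPS3, which also takes part in DNA repair, had them at 59 and 78 bp (9.56 and 11.8). RPL41, the shortest of the ribosomal proteins, had summits at 73 and 22 bp (14.9 and 6.28). Its strongest POLR3A region under vehicle was another one, with −log10 q 21.2, whose summit lay 1430 bp downstream of the RPL41 start and 203 bp from the start of ZC3H10, the next gene. In all, the strongest POLR3A summit lay nearer the start of another protein-coding gene than the member's own at 6 of 51 members under vehicle and 5 of 51 under P4. This count was not made over all genes, so it is not shown to be particular to the members.

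A start with C and at least 4 further pyrimidines was found at 42 of the 64 member promoters, 65.6%, and at 4.59% of 15812 promoters of protein-coding genes. The median run of pyrimidines from the start was 7 bases in the members and 0 in all. Members with and without the TOP type of start were set side by side for POLR3A, and a difference was not tested. Of the 42 with it, 33 had a POLR3A summit within 1 kb under vehicle and 31 under P4, 78.6% and 73.8%. Of the 22 without it, 15 and 16 had one, 68.2% and 72.7%. Summits within 100 bp were at 18 and 14 of the 42, and at 6 and 6 of the 22. RPL3 and RPS15, printed above, are among the 22 by this rule. Of the 5 members with no region in any list, 4 carried it and RPL10L, which starts with G, did not. The same stretches of the 4 are those of RPL22 (chr1:6199576-6199675, minus), RPS6 (chr9:19380217-19380316, minus), RPL36A (chrX:101390931-101391030, plus) and RPL39 (chrX:119791611-119791710, minus).
RPL22: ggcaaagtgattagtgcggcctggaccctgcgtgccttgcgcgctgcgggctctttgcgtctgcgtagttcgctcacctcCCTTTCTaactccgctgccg
RPS6: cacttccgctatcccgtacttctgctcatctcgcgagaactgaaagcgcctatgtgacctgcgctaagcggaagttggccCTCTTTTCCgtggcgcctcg
RPL36A: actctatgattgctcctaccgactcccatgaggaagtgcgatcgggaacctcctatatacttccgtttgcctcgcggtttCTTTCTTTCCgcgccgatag
RPL39: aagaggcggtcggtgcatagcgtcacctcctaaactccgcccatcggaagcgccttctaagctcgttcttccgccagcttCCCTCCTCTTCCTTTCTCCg

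Other letters were looked for on both strands of the 300-base promoter windows, from 250 bases before to 50 after the start. CCGGAAG, a form of the site of ETS factors such as GABP, was in 22 of 64 member promoters, 34.4%, against 14.1% of all. AAGATGGC, a form of the YY1 site, was in 6, or 9.38% against 3.86%. TATAAA was in 6, or 9.38% against 9.75%, and GGGCGG, the core of the SP1 site, in 36, or 56.2% against 58.3%. CACGTG was in 3 (4.69% against 8.82%) and TGANTCA in 2 (3.12% against 5.7%). The full palindrome of the progesterone response element was in 0 of the 64 and in 0.253% of all. AGAACA, the letters of one arm of it, so that matches of both can overlap, was in 9, or 14.1% against 11.2%. The B box of tRNA genes was in 0 of the 64 and in 0.0822% of all. A match describes letters in this window and is not a measured site.

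RPS29 stood apart in the POLR3A lists. It codes for a small zinc-binding protein of the small subunit, and its annotated span of chr14:49570988-49598710 contains RN7SL1 (chr14:49586580-49586878), the RNA polymerase III gene for the 7SL RNA of the signal recognition particle. The POLR3A region over RN7SL1 had −log10 q 469 under vehicle (50.8-fold) and 499 under P4 (64-fold), with summits 12099 and 12080 bp downstream of the RPS29 start. At the RPS29 start itself, the strongest POLR3A summits within 1 kb had 6.85 at 353 bp upstream and 6.76 at 34 bp upstream. RN7SL1 was the sole tRNA, 5S, 7SL, 7SK, U6, Y, vault, RNase P or RNase MRP gene of the annotation in any of the 81 windows, so the other members with POLR3A had it with no such gene within 1 kb.

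Apart from RPS29, the POLR3A regions of the members were moderate, but stronger than those of most genes with a region. The strongest region of a member had a median −log10 q of 7.17 under vehicle (range 1.88 to 469, 67 genes), at percentile 85.3 of the list. All 8770 genes with a region had 4.19, at percentile 62.8. Under P4 the median was 5.69 (range 1.8 to 499, 66 genes), at percentile 85.1, against 4.26 and percentile 69.2 at 9733 genes. Among genes with windows between the members' quartiles, the medians were 6.88 for 33 members against 4.06 for 718 genes under vehicle. Under P4 they were closer, 4.95 for 35 members against 4.19 for 795 genes. A −log10 q of at least 5 was reached by 45 of the 67 members with a region under vehicle, 67.2%, against 35.5% of all genes with a region, and by 36 of 66 under P4, 54.5% against 32.4%. The other members highest under vehicle were RPL41 at 21.2, RPL32 at 19.1, RPL12 at 19 and RPL3 at 18.6. The latter 3 had that summit at 127, 54 and 47 bp downstream of the start. Under P4 they were RPL35A at 17.9, RPLP0 at 13.7, RPL3 at 13 and RPL10A at 12.3.

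In the PR lists the members ranked lower than other genes with a region. The median −log10 q of their strongest region was 3.59 under vehicle (range 1.47 to 18, 45 genes), at percentile 29 of the list, against 7.35 at all 8858 genes with a PR region. Under P4 it was 8.55 (range 2.09 to 71.4, 70 genes), at percentile 69, against 12.8 at 14035 genes. A −log10 q of at least 5 was reached by 42.2% of the members with a PR region under vehicle, against 64.6% of all genes with one, and by 70% under P4, against 78.2%. For at least 10 the shares were 13.3% against 42% and 44.3% against 55.9%. Long genes have more regions from which to take the strongest. Among genes with windows between the members' quartiles, the medians were 3.5 for 26 members against 4.89 for 603 genes under vehicle, and 8.21 for 36 members against 6.66 for 1138 genes under P4, so that the order under P4 depended on length.

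Many members without a PR region under vehicle had one in the longer list of P4. PR was at 26 members under P4 alone, 32.1%, against 27.3% of all genes, and at 1 member under vehicle alone, 1.23% against 1.23%. Both PR lists held 44 members, 54.3% against 43.5%. Of the 36 members without PR under vehicle, 26 had it under P4, 72.2%, against 49.4% of all genes in that state, and of the 45 with it, 1 lacked it under P4, 2.22% against 2.74%. Within 1 kb of the start, PR was at 29 of 64 members under P4 alone, 45.3% against 26.7% of all genes, and at 1 under vehicle alone, 1.56% against 1.67%. The gain did not hold with both PR lists cut by −log10 q to the same length. The P4 list then held 39 members, 48.1% against 45.8% of all genes, and the vehicle list 45, with 9 under P4 alone (11.1%, against 10.5% of all genes) and 15 under vehicle alone (18.5%, against 9.37%).

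The strongest member under P4 alone was RPS12, with −log10 q 45.8 (12.6-fold) at a summit 953 bp upstream of the start, the sole PR region of its window. It was followed by RPL39L at 14.9, RPL13A at 10.5 and RPL9 at 9.72. RPL13A, known for a role outside the ribosome in silencing inflammatory mRNAs, had 6 PR regions under P4 and the strongest 5199 bp downstream of its start.

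PR was strongest at RPS29, where the summit 375 bp downstream of the start had −log10 q 18 under vehicle (6.71-fold) and the summit at 368 bp had 71.4 under P4 (15.2-fold). RPL27A had a PR region under P4 with 60.6 (15.1-fold), 221 bp upstream of its start and 94 bp from that of TRIM66, against 6.37 under vehicle at 208 bp upstream. RPL13 had 60.4 under P4, 4825 bp into the gene, against 7.98 under vehicle. RPL14 had 17.8 under vehicle and 59.3 under P4, at 10861 and 10868 bp downstream of the start and 387 and 380 bp from the far end of the gene. RPL24 had 12.3 and 39.7 at 186 and 176 bp downstream of the start. RPL7 had 11.1 under vehicle. RPS29, RPL14 and RPL24 thus had their strongest PR summit at nearly the same place under both treatments, which was not the rule. Of 21 members with a PR summit within 1 kb of the start in both lists, 6 had the strongest ones within 100 bp of each other, with a median gap of 421 bp. The gaps were not measured over all genes. As values of separate lists the −log10 q give ranks, not a change with treatment.

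PR summits were not gathered at the start as those of POLR3A were. The strongest PR region of a window had its summit at a median distance of 1262 bp from the start under vehicle (34 members) and 925 bp under P4 (55 members), against 116 and 201 bp for POLR3A. Near the start, within 500 bp, were 9 of 34 and 22 of 55, or 26.5% and 40%. Genes with windows between the members' quartiles had 27% and 28.5%, while the members here were of any window length. A further 7 and 9 lay within 500 bp of the far end of the gene, 20.6% and 16.4%, beside 8.58% and 7.22% of those genes. Among the latter were the regions of RPL14, RPS3 and RPL3, whose P4 values were 59.3, 42.1 and 37.6. The strongest PR summit lay nearer the start of another protein-coding gene at 6 of 34 and 11 of 55 members, a count not made over all genes.

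Both antibodies had a region at 42 members under vehicle, 51.9%, against 30.7% of all genes, and at 63 under P4, 77.8%, against 46.4%. The higher count under P4 did not hold with the lists of an antibody at equal length, which left 33 members under P4, 40.7% against 26.3%, beside 42 under vehicle. At a −log10 q of at least 5 for both antibodies the counts were 16 and 27. The share of all genes at that limit was not computed, so nothing particular to the members can be read from it. Around the start both antibodies were at 20 and 45 of 64 members, 31.2% and 70.3%, against 13.9% and 26.9%. Among genes split by POLR3A, the members' PR shares lay near those of all genes. Of the members with POLR3A, 62.7% had PR under vehicle and 95.5% under P4, beside 69.4% and 94.6% of all genes with POLR3A. Of those without it, 3 of 14 and 7 of 15 had PR, or 21.4% and 46.7%, beside 25.1% and 47.9%. A PR region that overlapped a POLR3A region by at least 1 bp was in 26 windows under vehicle, 32.1%, against 17% of all genes, and in 56 under P4, 69.1%, against 34%. Where both antibodies had a summit within 1 kb of the start, the median gap between the strongest PR and POLR3A summits was 429 bp under vehicle (20 members, 4 of them within 100 bp) and 415 bp under P4 (44 members, 7 within 100 bp). These gaps were measured in members alone.

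Few members had POLR3A under a single treatment, and 62 or 76.5% had it under both, against 35.7% of all genes. Under vehicle alone there were 5, RPL3L, RPL29, RPL34, RPLP2 and RPSA, or 6.17% against 8.58% of all genes, and under P4 alone 4, RPL18, RPS13, RPS23 and RPS27A, or 4.94% against 13.4%. Of the 67 members with POLR3A under vehicle, 7.46% lacked it under P4, against 19.4% of all genes in that state, and of the 14 without it 28.6% had it under P4, against 24.1%. Around the start, 5 of 64 members had POLR3A under vehicle alone, 7.81% against 8.6% of all genes, and 4 under P4 alone, 6.25% against 10.7%. The −log10 q of the 5 were 4.19, 4.62, 1.88, 4.52 and 2.38 in the order named, and those of the 4 were 3.17, 4.95, 4.31 and 4.95, all below the respective member medians of 7.17 and 5.69. RPS27A, a fusion of ubiquitin with a small subunit protein, had its summit 304 bp downstream of the start and 86 bp from a start of CLHC1. With both POLR3A lists at the same length, the P4 list held 61 members, 75.3% against 38.5% of all genes, and 10 members had POLR3A under vehicle alone, 12.3% against 14.2% of all genes, and 4 under P4 alone, 4.94% against 8.38%.

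Members known from disease or signalling were looked at one by one. RPL5 and RPL11, which with 5S ribosomal RNA bind MDM2 and so stabilise p53, both had POLR3A, with −log10 q of 9.79 and 4.72 for RPL5 and 5.63 and 3.74 for RPL11 under vehicle and P4. PR was in neither list at RPL5, and at RPL11 it had 2.98 and 14. RPS19, the gene most often mutated in Diamond-Blackfan anaemia, had POLR3A values of 4.19 and 4.95, with summits 232 and 28 bp upstream of the start, and a PR region of 3.96 under P4 alone. RPS26, mutated in the same disease, had 8.81 and 11.1 for POLR3A at 216 and 201 bp downstream, and 4.66 and 11.9 for PR. RPS14, lost in the 5q- syndrome, had 7.57 and 8.3 for POLR3A and 7.21 and 45.2 for PR, the latter at 1165 and 1100 bp downstream. RPS6, the substrate of the S6 kinases, had no region in any list. Within this set, 6 of 7 genes had POLR3A under either treatment, 85.7% against 44.2% and 49.1% of all genes. PR was at 4 and 5 of them, 57.1% and 71.4%, near the 44.7% and 70.8% of all genes.

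The 3 stalk proteins differed among themselves. RPLP0 and RPLP1 were in all 4 lists, RPLP1 with POLR3A values of 6.88 and 10.4 at 60 and 28 bp downstream of the start. RPLP2 had POLR3A under vehicle alone, with 4.52 at 618 bp upstream. Of the paralogs, RPS27L, known as a p53 target, had POLR3A values of 11.8 and 4.86, and RPL39L 4.37 and 2.07. RPL3L, the form of striated muscle, had 4.19 under vehicle, with a summit 1029 bp from its nearer end and so outside the gene. RPL10L, an intronless copy used in the testis, had no region. PR was at none of the 4 under vehicle.

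The 4 members on chromosome X, RPL10, RPL36A, RPL39 and RPS4X, had no POLR3A region under either treatment and no PR region under vehicle. Under P4, PR was at RPL10 with −log10 q 8.14, 4125 bp downstream of the start, and at RPS4X with 2.3. Of all protein-coding genes on chromosome X, 11.1% and 14.7% had POLR3A under vehicle and P4 and 18% and 33.8% had PR, beside 45.7%, 50.6%, 45.9% and 72.5% on the autosomes. On the autosomes, 67 and 66 of 77 members had POLR3A and 45 and 68 had PR. The shares on X were thus lower for all genes, not for the 4 members alone.

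Many ribosomal protein genes carry small nucleolar RNAs (snoRNAs) in introns, which are processed from the host transcript. There were 60 snoRNA genes inside 29 members. POLR3A regions overlapped 2 of the 60 under vehicle and 6 under P4, or 3.33% and 10%, beside 2.02% and 3.19% of all 1190 annotated snoRNA genes. The 2 were SNORA10 in RPS2 and SNORD4A in RPL23A. Hosts and other members had POLR3A at similar shares, with 25 of 29 and 42 of 52 under vehicle and 24 of 29 and 42 of 52 under P4.

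Other genes of translation and other widely expressed genes also had POLR3A more often than all genes. Within 1 kb of the start, POLR3A regions were at 75% and 73.4% of ribosomal protein genes under vehicle and P4, at 68.1% and 66.7% of 69 genes of mitochondrial ribosomal proteins, and at 65.2% and 56.5% of 46 initiation factor genes. The proteasome, the protease of ubiquitinated proteins, had 55.9% and 52.9% of 34 genes, and complex I of the respiratory chain 58.1% and 61.3% of 31. PR under P4 was at 71.7% to 82.6% of these groups and at 78.1% of ribosomal protein genes. Background signal at such starts was not measured for either antibody. The strongest POLR3A region under vehicle had a median −log10 q of 4.19 in mitochondrial ribosomal protein and initiation factor genes, 3.8 in proteasome and 4.11 in complex I genes, below the 7.17 of ribosomal protein genes and near the 4.19 of all genes with a region. Under P4 the medians were 4.31, 5.33, 5.6 and 5.48, and 5.69 in ribosomal protein genes. Among 10 genes of elongation factors and TPT1, several of which have TOP mRNAs, 6 or 60% had POLR3A in the window under each treatment, against 44.2% and 49.1% of all genes. EEF2, the translocase of elongation, had 6.38 and 3.74, and EEF1A1, which brings tRNAs to the ribosome, 2.93 and 5.63. TPT1, EEF1B2 and EEF1A2 had no POLR3A region under either treatment, EEF1D none under vehicle and EIF5A2 none under P4.

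**Figure D4:**
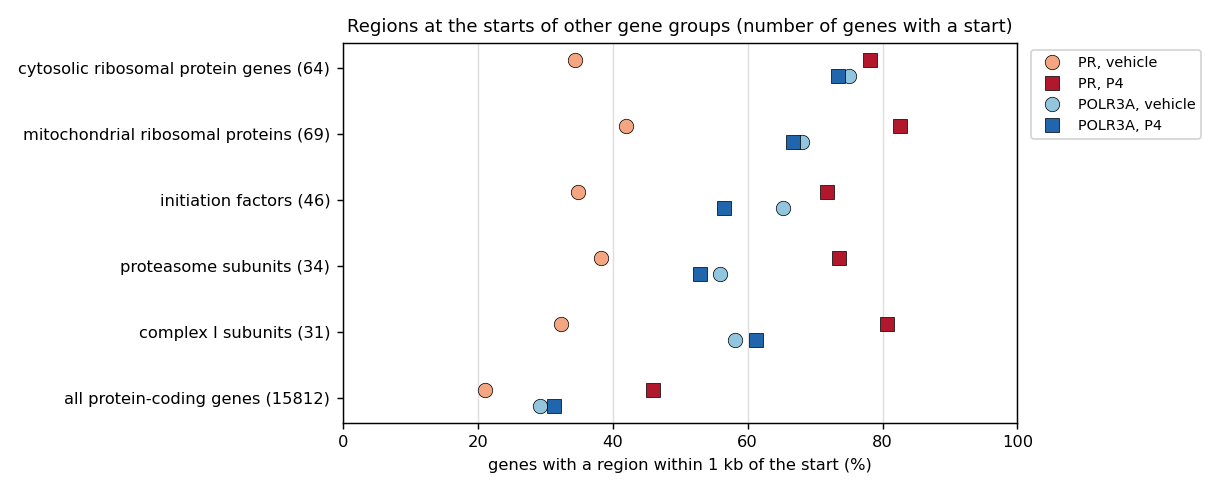
Share of genes with a region within 1 kb of the start, in percent, for 5 gene groups and all protein-coding genes (number with a start in brackets), with circles for vehicle and squares for P4. POLR3A stood at 75% and 73.4% of ribosomal protein genes, 68.1% and 66.7% of mitochondrial ribosomal protein genes and 29.2% and 31.3% of all genes.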

How the data were processed

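The authors deposited 1 peak list per antibody and treatment. Per the submitters' processing notes, cutadapt, Bowtie2 and MACS2 were used with the build hg38; the control, the options and how replicates were joined are not given in the sources used here. Per the file layout, each row holds a region, its summit, and the authors' fold enrichment (a ratio) and −log10 q. The largest q-value was 0.0497. The deposited peak score was not used, nor were 4 columns with the −log10 p. Values served to rank regions within a list only.

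Gene spans came from RefSeq (GRCh38.p14), without genes of alternate sequences, which left 58419 of 59098 genes on chromosomes 1 to 22 and X. Starts and strands came from RefSeq's promoter table, which matched 64 of the 81 members; the outermost start was used. Counts of all genes were equal to those of bedtools 2.31.1 in 4 of 4 lists, and the overlap code was tested on simulated data. No test between lists was run, since replicates share a list. Intervals are exact binomial ones (scipy 1.17.1).

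Promoters were searched for set letters on both strands. Lists were also recomputed by −log10 q, length, window and overlap rule. Named genes are the 4 strongest of each list, the 4 strongest with a single treatment, those with no region, those with an RNA polymerase III gene, and lists of disease genes, stalk proteins and paralogs; others named were chosen after their values were seen. Members and lists were chosen with earlier results of these data known. A few results of single members are not reported here; the counts include them.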

Additional observations from a re-analysis of the deposited data

How the results depend on the processing

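Replicates share a list, so no replicate could be left out. The comparison between the members' quartiles of window length, the counts without RPS29, the shares of all genes at stricter −log10 q, the nearest of all starts and the strongest summit within 1 kb were chosen after the data had been seen. No paired analysis was possible because the lists carry no replicate numbers. Of 182 recomputed values, 125 kept their direction and stayed within 1.5 times the reported one, 55 moved and 2 reversed. The net count of members that had PR under P4 alone over those under vehicle alone went from 25 to -6 with the lists of an antibody at equal length and to 2 with all 4 at equal length. For POLR3A it was -1 as reported and 2 with 5 kb on either side, -9 and -5 at a −log10 q of at least 5 and 10, -6 at either equal length, -3 over the gene span alone and 0 by the summit, by 50% of the region or without the 4 paralogs. At a −log10 q of at least 5, members with a region numbered 19 for PR under vehicle and 36 for POLR3A under P4. At 10 they numbered 6 and 31 for PR under vehicle and P4 and 17 and 12 for POLR3A. PR was at 39 members under P4 with its lists at equal length, at 27 and 29 with all 4 lists at equal length, and at 22 under vehicle around the start. Members with PR under P4 alone were 9 and 8 at the 2 equal lengths, and those under vehicle alone 15 and 6, with 0 at a −log10 q of 10 or with 5 kb and 2 over the span alone. POLR3A under P4 alone was at 7 members at a −log10 q of 5 and 7 at 10, and under vehicle alone at 16 and 12, and at 10 with either equal length. Both antibodies were at 16, 2, 27 and 20 members under vehicle at a −log10 q of 5, of 10, with all lists at equal length and around the start. Under P4 they were at 27 and 10 by the 2 thresholds, and at 33 and 27 by the 2 equal lengths. All 4 lists shared 13, 1, 20 and 19 members, and no list had 18, 42, 10 and 9, in the same order as under vehicle, with 8 over the span alone. These counts are of members alone. For combinations of lists, shares of all genes at these settings were computed only where given above. Elsewhere the counts do not tell whether other genes moved alike. The median distance of the PR summit became 197 and 220 bp within 500 bp and 388.5 and 326 bp within 1 kb, and that of POLR3A under P4 126.5 bp within 500 bp. The ratio of shares for PR under vehicle was 2.16 at the members' middle lengths. Depth is unknown, so that genes without a region cannot be called unbound.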

Other observations

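Ribosomal protein genes have many processed copies, and reads that fit a gene and its copies cannot be placed with confidence. Of 1962 annotated pseudogenes of the members, 43 or 2.19% had a POLR3A region under vehicle and 90 or 4.59% under P4, and 64 or 3.26% and 219 or 11.2% a PR region. Over all 16269 pseudogenes these shares were 5.46%, 6.95%, 5.57% and 13.6%. The part of such reads in the regions of the members was not tested.

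The symbol rule leaves out 8 other proteins of the cytosolic ribosome or close relatives. POLR3A was at 7 of the 8 under vehicle and at 8 under P4, against 44.2% and 49.1% of all protein-coding genes, and PR at 5 and 8, against 44.7% and 70.8%. RACK1, a scaffold of the small subunit, had POLR3A values of 10.7 and 7.5, and FAU, which gives a small subunit protein, 3.5 and 3.78. RPL22L1, the paralog of RPL22, had a region in all 4 lists, with POLR3A values of 11.3 and 14.5, while RPL22 itself had none. RPL7L1 had the highest PR values of the 8, 41.9 under vehicle and 127 under P4.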
